A study of Mus musculus with 12 samples.

Results

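Endothelial cells line every vessel of the lung, and the 32 genes described here are those by which they are usually recognised: surface and junction proteins, receptors and transcription factors. They were taken by symbol from a list of endothelial identity genes that was chosen with earlier results of these data known. All 32 were found among the 23478 genes of the table. RNA-seq was done on lungs of newborn C57/Bl6 mice, after the lavage fluid had been taken out. On day 0 pups received 25 mg/kg of aurothioglucose (ATG), a gold drug and inhibitor of thioredoxin reductase, into the peritoneum, or saline. For the next 72 h they breathed either room air or oxygen above 95% (hyperoxia). This gave 4 groups of 3 samples: saline room air, ATG room air, saline hyperoxia and ATG hyperoxia. All 4 groups had an injection and none was left untouched, so saline room air served as the baseline. The questions were whether the endothelial share of the lung's RNA moved, and whether single endothelial genes moved within it.

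The alveoli of a mouse form after birth, and their capillary bed grows with them. Vascular endothelial cells hold together through VE-cadherin, claudin and immunoglobulin-type adhesion proteins, and their identity is kept by transcription factors of the ETS and SOXF families. The circulating ligands BMP9 and BMP10 act on them through a receptor complex of ALK1, BMPR2 and endoglin. In the lung, capillaries hold general capillary cells, which carry KIT and GPIHBP1, and aerocytes, large cells for gas exchange that carry carbonic anhydrase 4. Several of the 32 genes are not confined to endothelium: mast cells also carry KIT, platelets hold von Willebrand factor, blood progenitors use TAL1 and LYL1, and lymphocytes use ETS1.

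Total counts ran from 14331749 to 20486735 per library, and 15761 genes had enough counts to be tested, all 32 endothelial genes among them. The labels do not say which samples share a litter, so p-values measure only the spread between these samples, which may be partly technical. Xist and Y-linked genes gave 3 males in saline room air, 2 females and 1 male in ATG room air and in saline hyperoxia, and 1 female and 2 males in ATG hyperoxia. In the groups with both sexes, the libraries cannot all be repeats of 1 animal. Cardiac transcripts set 2 libraries apart: the level of Nppa, an atrial hormone gene, was 270 CPM (counts relative to library size, after TMM scaling) in the second library of saline hyperoxia and 1107 CPM in the second of ATG hyperoxia. The other 10 libraries had 1.85 to 3.55 CPM. The muscle myosin gene Myh8 reached 175 CPM in the first library of saline hyperoxia. Leaving out all 3 of these libraries kept only the third library of saline hyperoxia. In such fits, lost samples and heart or muscle content cannot be told apart.

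The members covered a wide range of levels. The fewest counts for any of them in a library were 155, for Lyl1. Per kilobase of exon, Cdh5 was the most abundant with a mean of 279 CPM per kb over the 12 samples, followed by Cd93 with 208, Bmpr2 with 154, Thbd with 135 and Pecam1 with 111 CPM per kb. At the other end stood Sox17 with 11.2, Lyl1 with 6.13 and Tal1 with 3.90 CPM per kb. Other transcription factors stood higher, with Ets1 at 52.3, Sox18 at 51.2 and Sox7 at 46.9 CPM per kb. These were above the surface genes Car4 (42.6) and Plvap (35.9), while Fli1 (24.5), Erg (19.1) and Bcl6b (14.4) were below them. The roles were thus mixed on the scale per length.

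The summed level of the 32 genes overlapped between all groups. It was 8749, 9183 and 9210 CPM in saline room air, 10366, 8376 and 10622 in ATG room air, 8832, 8190 and 9182 in saline hyperoxia, and 9592, 8159 and 9297 in ATG hyperoxia. The lowest library of each of the last 3 groups was its second. Hyperoxia to room air, the ratio of the means was 0.965 after saline and 0.921 after ATG, and ATG to saline it was 1.08 in room air and 1.03 in hyperoxia. Each of these differed from 1 by less than the spread between samples, which was 0.0621, 0.139, 0.139 and 0.105 of the ratio. Without the 3 libraries rich in heart or muscle transcripts, the ratios for hyperoxia were 1.01 after saline and 0.965 after ATG. The 1.01 rests on the third library of saline hyperoxia alone. The 3 most abundant members, Bmpr2, Cd93 and Cdh5, weigh most in this sum. Without them the other 29 summed to 4695, 4811 and 4702 CPM in saline room air and 4541, 4063 and 4480 in saline hyperoxia, which did not overlap, with a ratio of 0.921. After ATG the same sum was 5156, 4610 and 5236 CPM in room air and 4731, 4262 and 4674 in hyperoxia, which overlapped, with a ratio of 0.911. In bulk samples, fewer cells of a type and less RNA per cell cannot be told apart.

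A second list of 30 pan-endothelial genes that shares no member with the first gave a lower sum in hyperoxia. It was 5449, 5523 and 5384 CPM in saline room air and 4987, 4666 and 5256 in saline hyperoxia. After ATG it was 6112, 5327 and 6040 CPM in room air and 5193, 4893 and 4996 in hyperoxia. Within each injection all 3 hyperoxia libraries were below all 3 room air libraries, with ratios of the means of 0.912 and 0.863. The 2 libraries rich in cardiac transcripts had the lowest sums of their groups. The other hyperoxia libraries were also below every room air library of the same injection. Of these, the first of saline hyperoxia was the library rich in Myh8. The third of saline hyperoxia stood at 5256 CPM, against a lowest of 5384 in saline room air. The part of heart or muscle content in the lower sums was not tested. These sums carry no test.

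**Figure D1:**
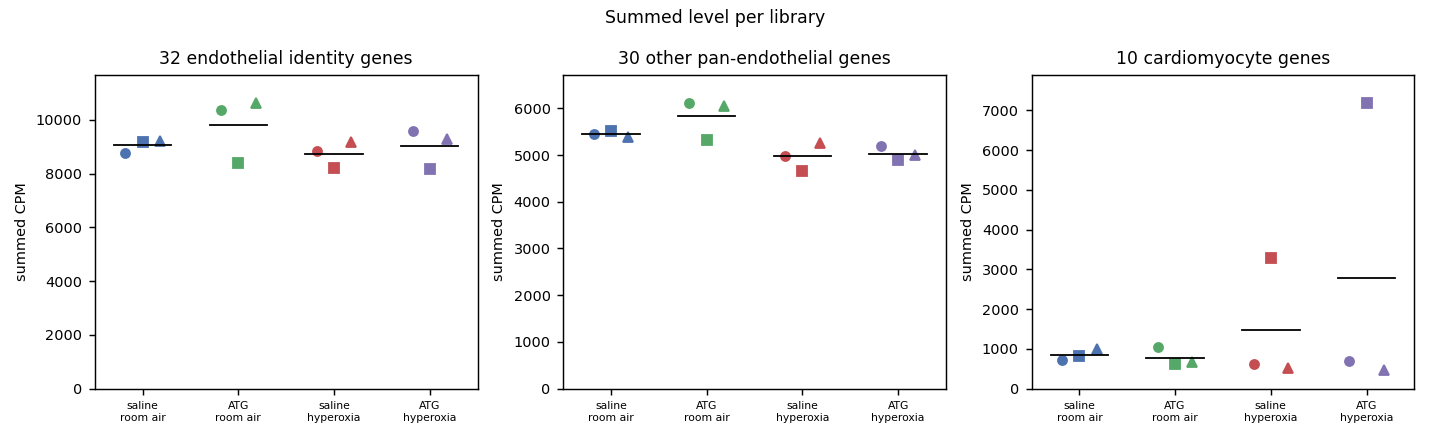
Summed CPM per library (y axis) of the 32 endothelial identity genes, of 30 other pan-endothelial genes and of 10 cardiomyocyte genes in the 4 groups; circle, square and triangle mark replicates 1, 2 and 3, and the line is the group mean. The 32 genes overlap between all groups, the other pan-endothelial genes are lower in hyperoxia within each injection, and the cardiomyocyte genes are at 3283 and 7182 CPM in the second library of each hyperoxia group.

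Hyperoxia changed single endothelial genes in both directions. Against room air after saline, 2 of the 32 rose (Mmrn2 and Plvap) and 4 fell (Kit, Sox17, Sox7 and Ets1) in edgeR's quasi-likelihood test with Benjamini-Hochberg adjustment over all 15761 genes, at an adjusted p under 0.05. Of all genes, 9.19% were called in this comparison, 4.7% higher and 4.5% lower. After ATG, 2 rose (Mmrn2 and Plvap) and 3 fell (Kit, Ets1 and Car4), where 11.7% of all genes were called, 5.42% higher and 6.26% lower. The saline and the ATG comparison share no sample, though they share the model's estimate of the spread. In both, 4 genes were called in the same direction: Mmrn2, Plvap, Kit and Ets1. The share of all genes called in both was not counted. Averaged over both injections, 5 rose and 7 fell, against 22.4% of all genes called, 11% higher and 11.3% lower. The additional genes in the average were Eng, Cldn5 and Emcn among the higher, and Thbd and Tmem100 among the lower. The count of called genes in each comparison (6, 5 and 12 of 32) is read beside those shares of all genes.

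The median log2 fold change of the 32 members in hyperoxia was -0.09 after saline and -0.15 after ATG, while the median of all genes was -0.00 and 0.00. Values below 0 were found for 20 of 32 members after saline and for 24 after ATG. The same sign in both was found for 26, and the share over all genes was not counted. The samples of the 2 oxygen groups did not overlap for 4 higher and 8 lower members after saline, where 14.6% of all genes were higher and 14.8% lower without overlap (29.5% in all). After ATG this held for 2 higher and 9 lower members, where 13.7% of all genes were higher and 13.9% lower without overlap (27.6% in all). The 95% interval of the fold change included 0 for 20 of 32 members in either comparison.

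**Figure D2:**
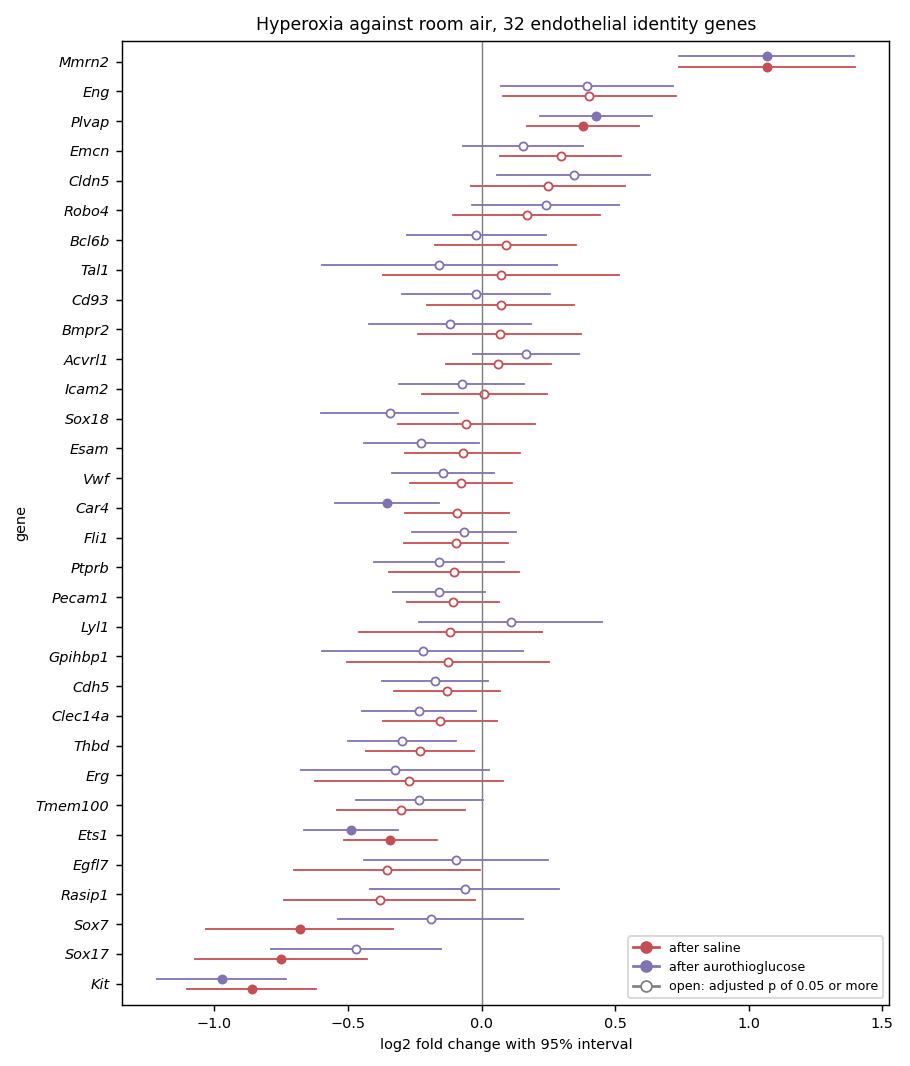
Log2 fold change of hyperoxia against room air (x axis) with its 95% interval from edgeR's quasi-likelihood fit for each of the 32 genes (y axis), after saline in red and after ATG in purple; filled points have an adjusted p under 0.05. Mmrn2 lies at 1.07 after both injections, Kit at -0.86 and -0.97, and most members lie between these with intervals that include 0.

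Kit (chr5:75574916-75656722, plus strand of GRCm38), the receptor of stem cell factor, had the largest fall of the members. Its level was 215, 198 and 168 CPM in saline room air and 125, 97.1 and 97.7 CPM in saline hyperoxia. After ATG it was 174, 172 and 172 CPM in room air and 88.0, 96.1 and 79.7 CPM in hyperoxia. All 6 hyperoxia samples were below all 6 room air samples. The log2 fold change was -0.86 (SE 0.11, adjusted p = 0.000383) after saline and -0.97 (SE 0.11, adjusted p = 0.000127) after ATG. Mast cell genes were measured beside it, since mast cells carry KIT. Hdc, the histidine decarboxylase gene and the most abundant of that list, fell by 0.87 on the log2 scale after saline and by 1.21 after ATG. The protease genes Cpa3, Mcpt4, Cma1 and Tpsb2 and the receptor gene Ms4a2 did not pass, so 1 of the 6 mast cell genes tested fell. In room air the 8 mast cell genes summed to 63.1 to 74.3 CPM with saline and 72.0 to 79.3 with ATG, and in hyperoxia to 39.0 to 66.5 and 55.8 to 64.2 CPM. Of them, Fcer1a and Tpsab1 were at 0 in 3 libraries each and below 1 CPM in the rest. The part of mast cells in the fall of Kit was not tested. Kitl, the ligand of the receptor and itself an aerocyte gene, had mean levels of 313, 297, 304 and 301 CPM in saline room air, ATG room air, saline hyperoxia and ATG hyperoxia and did not pass.

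Mmrn2 (chr14:34375465-34404287, plus strand), which encodes multimerin 2, an extracellular matrix protein of vessels that binds CLEC14A and CD93, was the member with the highest fold change. It stood at 38.0, 37.0 and 31.1 CPM in saline room air and at 62.7, 76.1 and 83.6 CPM in saline hyperoxia. After ATG it stood at 34.6, 36.2 and 34.1 CPM in room air and at 83.8, 54.1 and 81.9 CPM in hyperoxia. All 6 hyperoxia samples were above all 6 room air samples, and ATG hyperoxia 2, a library rich in cardiac transcripts, was the lowest of the 6. The fitted log2 change was 1.07 (SE 0.15) after both injections, with adjusted p = 0.000755 after saline and 0.000549 after ATG. The surface proteins that bind multimerin 2 were not called in any comparison. Clec14a had log2 fold changes of -0.15 after saline and -0.23 after ATG (adjusted p = 0.393 and 0.155), and Cd93 of 0.07 and -0.02 (adjusted p = 0.792 and 0.943). Of the rest of the group of guidance, matrix and signalling genes, Egfl7, a secreted vascular factor, had -0.35 and -0.10, and Robo4, a guidance receptor, 0.17 and 0.24, with no call. Egfl7 shares 264 exonic bases with Gm20532 on the same strand, so its counts are uncertain. Rasip1, needed for vessel lumens, had -0.38 and -0.06 without a call. It shares 654 exonic bases with Izumo1 on the same strand, so its counts are uncertain.

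Promoter sequences are shown for the 5 genes that changed in the averaged comparison and have an entry in the RefSeq promoter table (GRCm38.p6), where 13 of the 32 members matched. Each runs 5′ to 3′ on the gene's strand and ends before the first base annotated to the gene in RefSeq or GENCODE. All 5 lie on the plus strand. Capitals mark a match, on either strand, to 1 of 5 short motifs, for ETS, SOX, GATA, TAL1 and SMAD1/5 factors, whose letters are given after the sequences. Kit and Car4 fell and Eng, Emcn and Cldn5 rose, and the windows are chr5:75574737-75574915 for Kit, chr11:84957504-84957753 for Car4, chr2:32646345-32646594 for Eng, chr3:137340828-137341061 for Emcn and chr16:18776597-18776846 for Cldn5.
Kit: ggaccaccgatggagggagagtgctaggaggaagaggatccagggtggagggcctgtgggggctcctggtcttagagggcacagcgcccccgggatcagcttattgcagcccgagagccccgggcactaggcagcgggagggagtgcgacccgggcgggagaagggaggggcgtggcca
Car4: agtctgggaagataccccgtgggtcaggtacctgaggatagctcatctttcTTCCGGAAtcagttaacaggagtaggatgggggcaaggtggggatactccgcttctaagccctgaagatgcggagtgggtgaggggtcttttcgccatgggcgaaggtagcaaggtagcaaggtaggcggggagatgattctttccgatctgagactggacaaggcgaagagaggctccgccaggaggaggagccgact
Eng: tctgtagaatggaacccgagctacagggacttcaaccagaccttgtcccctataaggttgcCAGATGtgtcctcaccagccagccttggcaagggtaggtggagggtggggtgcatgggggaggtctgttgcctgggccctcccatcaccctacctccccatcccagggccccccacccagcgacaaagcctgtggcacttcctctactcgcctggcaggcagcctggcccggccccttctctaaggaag
Emcn: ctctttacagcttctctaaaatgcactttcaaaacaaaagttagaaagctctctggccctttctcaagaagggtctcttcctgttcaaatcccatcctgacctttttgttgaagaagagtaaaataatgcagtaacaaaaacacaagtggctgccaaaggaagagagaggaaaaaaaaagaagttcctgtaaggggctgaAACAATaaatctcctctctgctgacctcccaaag
Cldn5: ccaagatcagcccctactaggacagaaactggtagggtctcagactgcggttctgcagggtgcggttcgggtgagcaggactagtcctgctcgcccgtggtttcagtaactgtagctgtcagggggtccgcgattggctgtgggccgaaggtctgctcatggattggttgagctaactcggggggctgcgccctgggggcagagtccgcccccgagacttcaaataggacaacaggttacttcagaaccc
Car4 held 2 ETS matches, which overlap on opposite strands (TTCCGGAA), Emcn held 1 SOX match and Eng 1 E-box match, while Kit and Cldn5 held no match in these windows. Shares were taken in windows of 250 bases before the start. The ETS motif, searched as CCGGAA on both strands, was found in 2 of 13 member promoters and in 12.2% of 27025 promoters in the table. For SOX factors the letters AACAAT were found in 1 of 13 member promoters and in 9.65% of all. For GATA factors the letters AGATAA were found in 1 of 13 member promoters and in 10.3% of all. The E-box that TAL1 binds, CAGATG, was found in 2 of 13 member promoters and in 14.5% of all. The letters GGCGCC, for SMAD1/5, were found in 1 of 13 member promoters and in 9.54% of all. These motifs differ in their letters but can overlap in place. A match is a description of the letters only.

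Among the 9 transcription factors, 3 fell after saline (Sox17, Sox7 and Ets1), 1 fell after ATG (Ets1) and none rose. Of all genes, 4.5% were called lower after saline and 6.26% after ATG. The median log2 fold change of the 9 was -0.12 after saline and -0.19 after ATG. In the average 8 of 9 were below 0, where the median of all genes was -0.00. Sox17 (chr1:4490931-4497354, minus strand), a SOXF factor of arterial identity, stood at 52.3, 59.7 and 53.0 CPM in saline room air, 51.4, 61.0 and 54.2 in ATG room air, 41.2, 26.8 and 30.1 in saline hyperoxia, and 41.9, 33.5 and 44.9 in ATG hyperoxia. Sox17 shares 804 exonic bases with Gm37587 on the opposite strand, a gene with no counts of its own here, so its counts are uncertain. All 6 hyperoxia samples were below all 6 room air samples. It had a log2 fold change of -0.75 (SE 0.15, adjusted p = 0.00676) after saline and -0.47 (SE 0.15, adjusted p = 0.0561) after ATG, where it did not pass. Over the 16 alternatives run, the adjusted p after ATG ran from 0.0255 to 0.217 and passed in 3. The average was -0.61 (SE 0.11, adjusted p = 0.000793).

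Sox7 (chr14:63943673-63950732, plus strand), the second SOXF factor, was lower in saline hyperoxia than in any other group. It stood at 164, 179 and 203 CPM in saline room air and at 122, 102 and 116 CPM in saline hyperoxia. After ATG it stood at 206, 134 and 179 CPM in room air and at 130, 132 and 193 CPM in hyperoxia, and these overlapped. In log2 terms the change was -0.68 (SE 0.16, adjusted p = 0.0173) after saline and -0.19 (SE 0.16, adjusted p = 0.509) after ATG. The difference between these was 0.49 (95% interval -0.00 to 0.98) and did not pass. Averaged over injections Sox7 fell by 0.44 (SE 0.12, adjusted p = 0.0134), which missed the threshold without the 2 cardiac-rich libraries (-0.34) or all 3 heart- or muscle-rich ones (-0.36). The call after saline ended without saline room air 2 (-0.68) or 3 (-0.59), or with saline hyperoxia 2 (-0.60) or 3 (-0.69) left out. Without the 3 heart- or muscle-rich libraries, which left only saline hyperoxia 3 in its group, the change was -0.64. Sox18, the third SOXF factor, had -0.06 after saline and -0.34 after ATG (adjusted p = 0.829 and 0.0804), and was not called.

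Ets1 (chr9:32636221-32757820, plus strand), an ETS factor, fell after both injections. Its level was 325, 323 and 290 CPM in saline room air and 254, 232 and 255 CPM in saline hyperoxia. After ATG it was 309, 274 and 297 CPM in room air and 218, 192 and 218 CPM in hyperoxia. The 6 hyperoxia samples were all below the 6 room air samples. The log2 fold change was -0.34 (SE 0.08, adjusted p = 0.0178) after saline and -0.49 (SE 0.08, adjusted p = 0.00142) after ATG. The call after saline ended without saline room air 1 (-0.30) or 2 (-0.31), without saline hyperoxia 2 (-0.29) and without the 2 cardiac-rich libraries (-0.29). Without all 3 heart- or muscle-rich libraries, which left only saline hyperoxia 3 in its group, the change was -0.28. The 10 leukocyte and lymphocyte genes, measured beside it since lymphocytes use ETS1, summed in room air to 94.2 to 116 CPM with saline and 97.4 to 113 with ATG, and in hyperoxia to 108 to 158 and 59.7 to 110 CPM. Of these 10, Rag1 was called higher after saline and no gene was called after ATG. Rag1 stood at 2.67, 3.23 and 1.88 CPM in saline room air and at 2.67, 39.2 and 15.0 CPM in saline hyperoxia. Its rise thus lay in saline hyperoxia 2 and 3, while saline hyperoxia 1 was within the range of saline room air. The part of leukocytes and lymphocytes in the fall of Ets1 was not tested.

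The other ETS factors and the blood-vessel factors did not pass in hyperoxia. Erg had -0.27 after saline and -0.32 after ATG (adjusted p = 0.362 and 0.242), and Fli1 -0.10 and -0.07 (0.58 and 0.707). Tal1, at 11.1 to 20.2 CPM, had 0.07 and -0.16, and Lyl1, at 9.10 to 12.7 CPM, had -0.12 and 0.11. The lowest and highest ends of their intervals after saline and ATG were -0.60 and 0.52 for Tal1 and -0.46 and 0.45 for Lyl1. Changes as large as these ends were thus not excluded. Bcl6b, a repressor found in endothelium, had 0.09 and -0.02.

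Of the 5 capillary surface genes, Plvap rose after both injections and Car4 fell after ATG. Plvap (chr8:71497765-71511752, minus strand), which forms the diaphragms of endothelial vesicles, stood at 59.9, 64.1 and 52.0 CPM in saline room air and 77.4, 75.6 and 76.1 in saline hyperoxia. After ATG it stood at 70.9, 57.0 and 64.5 CPM in room air and 91.5, 85.5 and 81.8 in hyperoxia. The 6 hyperoxia samples were above the 6 room air samples. The fitted log2 change was 0.38 (SE 0.10, adjusted p = 0.0248) after saline and 0.43 (SE 0.10, adjusted p = 0.0101) after ATG. The call after saline ended with sex as a covariate (0.35), and without saline room air 1 (0.40) or 3 (0.31) or saline hyperoxia 1 or 3 (0.38 each). Without the 3 heart- or muscle-rich libraries, which left only saline hyperoxia 3 in its group, the change was 0.39. The value moved little in each, and the call after ATG held under every alternative run.

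Car4 (chr11:84957786-84966044, plus strand), the carbonic anhydrase of the capillary surface, stood at 60.8, 57.3 and 54.0 CPM in saline room air and 54.7, 49.4 and 57.3 in saline hyperoxia, which overlap. After ATG it stood at 58.0, 60.5 and 55.1 CPM in room air and 46.9, 42.1 and 46.7 in hyperoxia, which do not. It had a log2 fold change of -0.09 (SE 0.09, adjusted p = 0.595) after saline and -0.35 (SE 0.09, adjusted p = 0.0200) after ATG, and the difference between them, -0.26 (95% interval -0.54 to 0.01), did not pass. The call after ATG ended without ATG room air 1 (-0.34) or 2 (-0.29), without ATG hyperoxia 1 (-0.37) or 2 (-0.29), without the 2 cardiac-rich libraries (-0.29), without all 3 (-0.28), and in a fit of the 6 ATG samples alone (-0.34). Averaged over injections Car4 fell by 0.22 (SE 0.06, adjusted p = 0.021). It missed the threshold without saline room air 1 (-0.19) or 2 (-0.21), ATG room air 1 (-0.21) or 2 (-0.19), saline hyperoxia 2 (-0.18), ATG hyperoxia 2 (-0.19), without the 2 cardiac-rich libraries (-0.16) and without all 3 (-0.13).

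Emcn, the sialomucin endomucin of veins and capillaries, passed in the average of both injections and not within either. It stood at 95.1, 82.9 and 81.3 CPM in saline room air and 122, 95.2 and 101 in saline hyperoxia, and after ATG at 89.5, 105 and 87.3 CPM in room air and 107, 98.6 and 108 in hyperoxia. The groups were separate after saline, by a narrow gap, and overlapped after ATG. The average log2 fold change was 0.23 (SE 0.07, adjusted p = 0.0424). It missed the threshold with sex as a covariate (0.23), without the 3 heart- or muscle-rich libraries (0.23), and without saline room air 2 (0.22) or 3 (0.21), ATG room air 1 (0.22) or 3 (0.21), saline hyperoxia 1 (0.18), or ATG hyperoxia 1 (0.23) or 3 (0.22). After saline alone Emcn had 0.30, and it passed in 2 of the 16 alternatives run, without the 2 cardiac-rich libraries (0.38) and with scaling by other endothelial genes (0.41).

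Gpihbp1, which carries lipoprotein lipase to the capillary lumen, did not pass. It stood at 44.0, 44.6 and 31.3 CPM in saline room air, 34.6, 52.4 and 48.6 in ATG room air, 42.9, 37.6 and 29.3 in saline hyperoxia, and 39.6, 41.6 and 35.2 in ATG hyperoxia. All groups overlapped, and the log2 fold changes for hyperoxia were -0.12 (95% interval -0.50 to 0.25) and -0.22 (-0.60 to 0.16). Tmem100, a membrane protein downstream of ALK1, stood at 127, 137 and 149 CPM in saline room air, 151, 194 and 188 in ATG room air, 120, 95.4 and 120 in saline hyperoxia, and 161, 144 and 148 in ATG hyperoxia. In the average it fell by 0.27 in hyperoxia (SE 0.08, adjusted p = 0.0239). The fall missed the threshold without the 2 cardiac-rich libraries (-0.19) or all 3 (-0.18), and without saline room air 2 (-0.26) or 3 (-0.23), ATG room air 2 (-0.22) or 3 (-0.24), saline hyperoxia 2 (-0.20), or ATG hyperoxia 2 (-0.24) or 3 (-0.25).

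**Figure D3:**
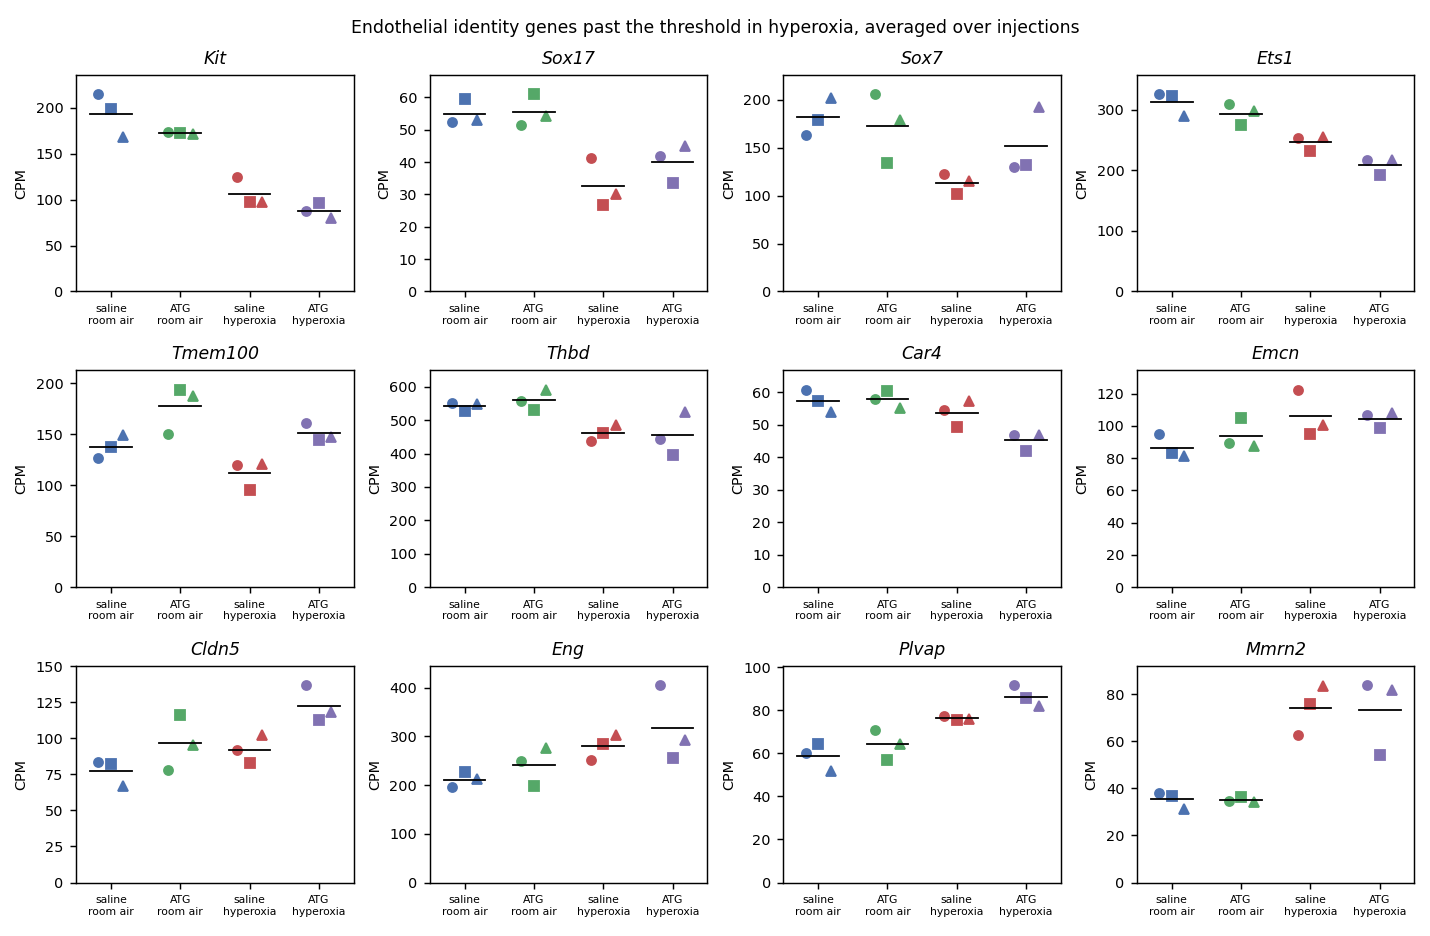
CPM per library (y axis, from 0) in the 4 groups for the 12 members that passed the threshold in hyperoxia averaged over injections; circle, square and triangle mark replicates 1, 2 and 3, and the line is the group mean. For Kit, Sox17, Ets1, Thbd, Plvap and Mmrn2 the 6 hyperoxia samples lie on one side of the 6 room air samples, while for Sox7, Car4, Emcn, Cldn5, Eng and Tmem100 they do not separate, or separate in 1 injection only.

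Of the 6 junction genes, none was called within either injection, and 1 (Cldn5) rose in the average. Pecam1, the adhesion protein CD31, stood at 481, 460 and 450 CPM in saline room air, 505, 460 and 512 in ATG room air, 459, 386 and 447 in saline hyperoxia, and 443, 430 and 450 in ATG hyperoxia. Its log2 fold change in hyperoxia was -0.11 (95% interval -0.28 to 0.07, adjusted p = 0.474) after saline and -0.16 (-0.33 to 0.01, adjusted p = 0.235) after ATG, and the groups overlapped after saline but not after ATG. Cdh5, VE-cadherin, stood at 1131, 1162 and 1074 CPM in saline room air, 1338, 1088 and 1244 in ATG room air, 1022, 963 and 1094 in saline hyperoxia, and 1168, 965 and 1120 in ATG hyperoxia. Its values overlapped between all groups, with -0.13 (-0.33 to 0.07) and -0.17 (-0.37 to 0.03) for hyperoxia. The other adhesion genes Esam (-0.07 and -0.23), Icam2 (0.01 and -0.07) and the phosphatase gene Ptprb (-0.10 and -0.16) did not pass either.

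Cldn5, the tight junction protein claudin 5, stood at 83.3, 82.3 and 67.0 CPM in saline room air, 78.4, 116 and 95.4 in ATG room air, 91.7, 82.7 and 102 in saline hyperoxia, and 137, 113 and 119 in ATG hyperoxia. Oxygen groups overlapped after both injections. The average log2 fold change was 0.30 (SE 0.10, adjusted p = 0.0369). It missed the threshold with the replicate number as a block (0.30, adjusted p = 0.0510 in edgeR's quasi-likelihood test), and without saline room air 3 (0.26), ATG room air 1 (0.24) or 3 (0.30), saline hyperoxia 1 (0.31) or 3 (0.26), or ATG hyperoxia 1 (0.26).

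Of the receptors for BMP9 and BMP10, Eng rose in the average and Bmpr2 and Acvrl1 did not pass. Eng (chr2:32646595-32682669, plus strand), the co-receptor endoglin, stood at 196, 226 and 212 CPM in saline room air, 249, 199 and 276 in ATG room air, 252, 284 and 302 in saline hyperoxia, and 404, 255 and 292 in ATG hyperoxia. The oxygen groups were separate after saline and overlapped after ATG. In log2 terms the change was 0.40 (SE 0.11, adjusted p = 0.0143) in the average, which passed under every alternative run, and it was 0.40 after saline and 0.39 after ATG without passing (adjusted p = 0.117 and 0.111). Within an injection the call of Eng varied: 3 of 16 alternatives passed after saline and 5 of 16 after ATG. After ATG its log2 fold change ran from 0.20, without ATG hyperoxia 1, to 0.56, and it passed without the 2 cardiac-rich libraries (0.55) and without all 3 heart- or muscle-rich ones (0.55). Eng shares 61 exonic bases with Fpgs on the opposite strand, and Fpgs did not pass. Acvrl1 shares 127 exonic bases with the antisense gene Gm16031, so its counts are uncertain.

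Bmpr2, the type 2 receptor, stood at 1684, 1887 and 2041 CPM in saline room air, 2328, 1583 and 2479 in ATG room air, 1880, 1868 and 2134 in saline hyperoxia, and 2177, 1697 and 2013 in ATG hyperoxia. All groups overlapped, and the log2 fold changes were 0.07 (95% interval -0.24 to 0.37) and -0.12 (-0.42 to 0.19). Acvrl1, the type 1 receptor ALK1, had 0.06 and 0.17. Of 22 further genes of BMP and SMAD signalling, none was called after saline and 3 fell after ATG: the signal transducer gene Smad9 (-0.80, adjusted p = 0.00242) and the target genes Id2 (-0.63, adjusted p = 0.00484) and Id3 (-0.34, adjusted p = 0.039). In the average 4 of 22 fell and none rose. Of all genes, 6.26% were called lower after ATG and 11.3% in the average.

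Of the 2 haemostasis genes, Thbd fell in the average and Vwf did not pass. Thbd, the anticoagulant receptor thrombomodulin, stood at 551, 526 and 549 CPM in saline room air, 556, 529.5 and 591 in ATG room air, 437, 460 and 486 in saline hyperoxia, and 445, 394 and 524 in ATG hyperoxia. All 6 hyperoxia samples were below all 6 room air samples, by a narrow gap. The average log2 fold change was -0.27 (SE 0.07, adjusted p = 0.0103), and -0.16 without the 3 heart- or muscle-rich libraries, where it missed the threshold. Vwf, von Willebrand factor, stood at 134, 139 and 131 CPM in saline room air, 153, 121 and 152 in ATG room air, 124, 130 and 129 in saline hyperoxia, and 137, 128 and 121 in ATG hyperoxia. Its log2 fold changes were -0.08 (95% interval -0.27 to 0.11) and -0.14 (-0.34 to 0.05). Of 8 megakaryocyte and platelet genes, measured because platelets hold this factor, none was called, and their sums in room air were 47.0 to 87.8 CPM with saline and 59.9 to 83.0 with ATG, and in hyperoxia 56.1 to 76.0 and 72.3 to 99.3 CPM.

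Values relative to other endothelial genes are given as a second scale. When libraries were scaled by the 30 other pan-endothelial genes in place of all genes, the median of all genes moved by 0.11 after saline, 0.16 after ATG and 0.14 in the average on the log2 scale. With TMM, 12 of the 30 genes were above 0 after saline and 18 below, with a median log2 fold change of -0.09. Their average on the log scale was lower in hyperoxia, so this scaling moves every gene up by construction. The shift says nothing about the members. All genes called rose with this scaling from 1449 to 1715 after saline, from 1840 to 2482 after ATG and from 3526 to 4470 in the average, of 15761 tested. On that scale 4 members were higher and 3 lower after saline (2 and 4 with TMM), 6 higher and 2 lower after ATG (2 and 3 with TMM), and 7 higher and 3 lower in the average (5 and 7 with TMM). Mmrn2 had 1.18 and 1.22 after saline and ATG, Plvap 0.50 and 0.59, Eng 0.52 and 0.56, and Kit -0.75 and -0.81, all called in the same direction as with TMM where TMM called them. Sox17 and Sox7 stayed lower after saline (-0.64 and -0.57), and Ets1 stayed lower after ATG (-0.33) but not after saline (-0.23). The calls of Car4 (-0.20 after ATG, and -0.09 in the average), Sox7 (-0.29), Thbd (-0.13) and Tmem100 (-0.14) in the average ended on this scale. Robo4 (0.41) and Acvrl1 (0.32) were called higher after ATG on this scale and not with TMM.

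Endothelial genes outside the 32, grouped by vessel type, also moved in both directions. Of the 30 pan-endothelial genes, 4 fell after saline, 6 fell after ATG and none rose, where 4.5% and 6.26% of all genes fell. Calcrl, the receptor of adrenomedullin, fell by 0.58 and 0.78 on the log2 scale, and Gja4, the arterial connexin 37, by 1.04 and 1.26. Of 10 general capillary genes, 3 rose and 1 fell after each injection: Aplnr, the apelin receptor, fell by 0.95 and 1.03, while Lpl, lipoprotein lipase, had 0.54 and 0.47, both called. Of 10 aerocyte genes 2 fell after saline (Fibin, -0.70, and Ednrb, -0.37) and 1 after ATG (Fibin, -0.63). Of 10 arterial genes 1 fell after each injection (Cxcl12, -0.51 and -0.54). Of 10 venous genes 2 fell after saline and 3 after ATG, with Vegfc at -0.84 and -0.60. Of 9 lymphatic genes 1 rose after each injection: Lyve1, the hyaluronan receptor of lymphatic vessels and of some macrophages, had 1.34 and 1.37. The median of each list lay between -0.17 and 0.20 in both comparisons.

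ATG against saline gave no call within room air or within hyperoxia, and 1 in the average. In room air 0 of 32 members passed in edgeR's quasi-likelihood test (0% of all genes), 3 had an unadjusted p under 0.05, DESeq2 called 1 (of 16 genes in all) and limma-voom 0. In hyperoxia 0 of 32 passed (0.00634% of all genes), 8 had an unadjusted p under 0.05, and DESeq2 and limma-voom called 0. In the average over oxygen 1 passed, Bcl6b, against 0.0444% of all genes called and 0.0381% called higher. In that comparison 7 had an unadjusted p under 0.05, DESeq2 called 3 (of 94 genes in all) and limma-voom 1 (of 9). The median log2 fold change of the members was 0.10 in room air and 0.04 in hyperoxia, against 0.01 and 0.00 for all genes, with 24 and 21 of 32 above 0. In room air the samples did not overlap for 4 members, all higher, where 6.26% of all genes were higher and 5.7% lower without overlap (12% in all). In hyperoxia this held for 5 higher and 3 lower members, where 5.55% of all genes were higher and 5.54% lower (11.1% in all). These comparisons share their groups with those of hyperoxia above.

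Bcl6b (chr11:70224128-70229798, minus strand) was higher with ATG in both oxygen conditions. It stood at 36.8, 38.6 and 39.4 CPM in saline room air and 52.4, 65.4 and 55.1 in ATG room air. In hyperoxia it stood at 36.6, 38.1 and 47.6 CPM with saline and 55.9, 50.9 and 63.6 with ATG. All 6 ATG samples were above all 6 saline samples. The log2 fold change was 0.59 (SE 0.12, adjusted p = 0.384) in room air, 0.48 (SE 0.12, adjusted p = 0.589) in hyperoxia and 0.54 (SE 0.09, adjusted p = 0.0477) in the average. The averaged call is near the threshold and ended with RLE size factors (0.54, adjusted p = 0.0544), the replicate block (0.54, adjusted p = 0.0765), sex as a covariate (0.56), scaling by other pan-endothelial genes (0.48), and without the 2 cardiac-rich libraries (0.55) or all 3 (0.45). It also ended without saline room air 1 (0.52), 2 (0.54) or 3 (0.55), ATG room air 2 (0.48) or 3 (0.55), saline hyperoxia 1 (0.50) or 2 (0.51), or ATG hyperoxia 1 (0.54) or 3 (0.49). Over the 21 alternatives run the adjusted p ran from 3.79e-05 to 0.460, and it passed in 6.

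Tmem100 and Cldn5 came next in order of p. Tmem100, with the values given above, was higher in ATG than in saline samples without overlap in either oxygen condition. Its log2 fold change was 0.36 in room air, 0.43 in hyperoxia and 0.40 (SE 0.08) in the average, and the adjusted p of the average was 0.0952 in edgeR's quasi-likelihood test and 0.00129 in DESeq2, and ran to 0.480 over 21 alternatives, of which 3 passed. Cldn5 had 0.32, 0.41 and 0.37 (SE 0.10), overlapped in room air and was separate in hyperoxia, and the adjusted p of the average was 0.255 in edgeR's quasi-likelihood test and 0.0445 in DESeq2, and ran to 0.689, with DESeq2 the 1 alternative that passed. Among the members below 0 in the average were Kit (-0.22, SE 0.08, adjusted p = 0.424), Ets1 (-0.17, SE 0.06, adjusted p = 0.415) and Car4 (-0.12). In hyperoxia the ATG samples of Kit, Ets1 and Car4 were below the saline samples without overlap. S1pr1, the sphingosine-1-phosphate receptor, was the one gene of the 30 other pan-endothelial genes called for ATG (0.63 in the average, adjusted p = 0.0401). The general capillary, aerocyte, arterial, venous, lymphatic and BMP lists had no call for ATG.

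**Figure D4:**
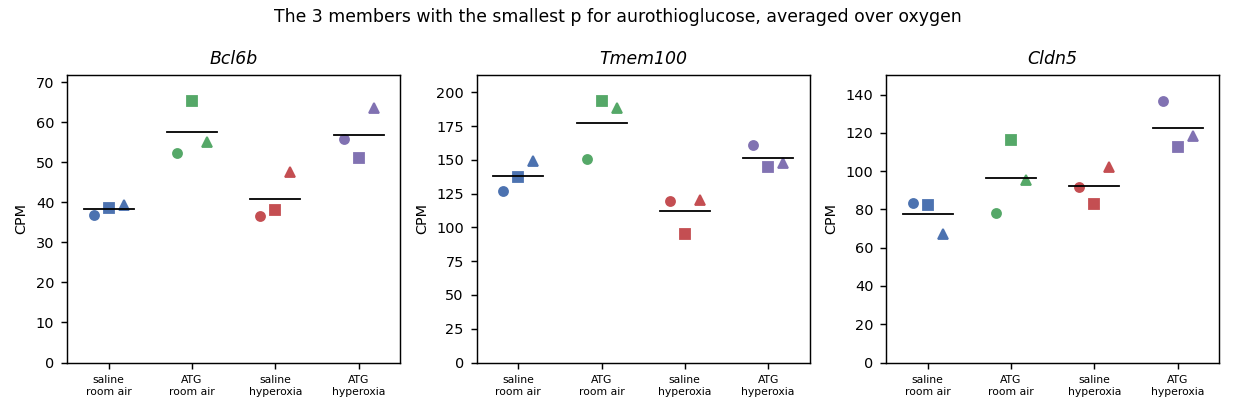
CPM per library (y axis, from 0) of Bcl6b, Tmem100 and Cldn5, the 3 members with the smallest p for ATG averaged over oxygen, in the 4 groups; circle, square and triangle mark replicates 1, 2 and 3, and the line is the group mean. Every ATG sample of Bcl6b lies above every saline sample, and Tmem100 and Cldn5 are separate in hyperoxia.

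**Figure D5:**
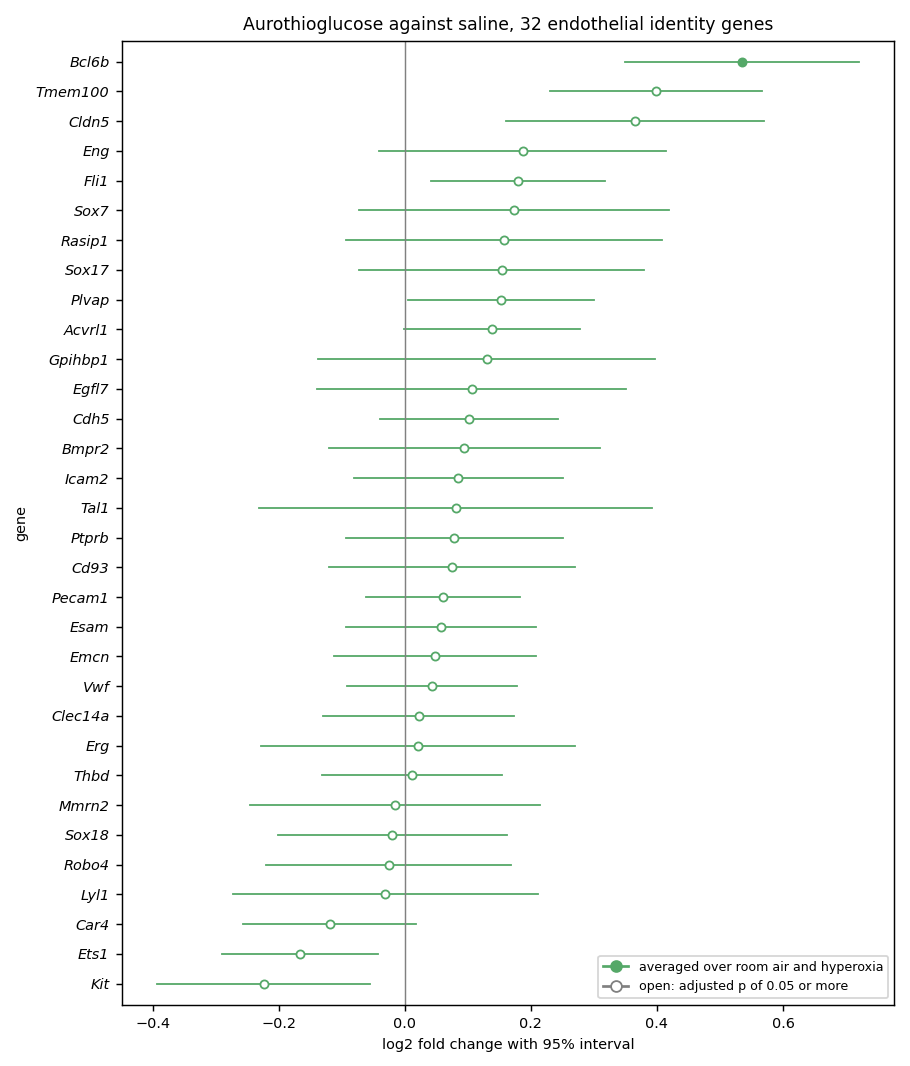
Log2 fold change of ATG against saline averaged over oxygen (x axis) with its 95% interval for each of the 32 genes (y axis), from edgeR's quasi-likelihood fit; the filled point, Bcl6b at 0.54, has an adjusted p under 0.05. The other 31 members lie between -0.22 and 0.40, and 25 of 32 are above 0.

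No member passed the test of a different response to hyperoxia between the injections. The interaction passed for 0 of 32 members in edgeR's quasi-likelihood test (0% of all genes), with 0 at an unadjusted p under 0.05 and 0 called by DESeq2 or limma-voom. The difference of the log2 fold changes, ATG minus saline, ran from -0.29 for Sox18 to 0.49 for Sox7. For Mmrn2 it was -0.00 (95% interval -0.46 to 0.46), for Kit -0.11 (-0.45 to 0.23) and for Plvap 0.05 (-0.25 to 0.34). With 3 samples per group, differences within those intervals were thus not excluded.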

How the data were processed

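Newborn mouse lung RNA-seq libraries (12 samples) were amplified from total RNA, per the labels' protocols. The authors deposited raw counts per gene symbol, not normalized. Per the submitters' processing notes the study used Bowtie2, Cufflinks, DESeq and mm10, with no version named. How reads were counted, whether by strand, and with which annotation is not given in the sources used here, so reads of overlapping genes cannot be told apart.

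Genes were kept by filterByExpr (minimum count 10, total 15), which left 15761 with 99.96% of the counts. After TMM scaling, edgeR's quasi-likelihood test was run on 1 model of the 4 group means in 12 samples (8 residual degrees of freedom), two-sided, with Benjamini-Hochberg adjustment over all genes and a threshold of 0.05. The script was tested on simulated data. The 7 comparisons share groups. Levels are TMM-scaled CPM, and per kilobase they use GENCODE vM21 exon lengths (GRCm38, the assembly of mm10). Amplified reads are not independent molecules.

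The members and lists were chosen with earlier results of these data known. Members got their value in every sample where they passed in any comparison, as did Pecam1, Cdh5, Car4, Plvap, Gpihbp1, Kit, Bmpr2 and Vwf whatever their p, and of each list up to 3 genes with the smallest adjusted p were named. Replicates differed beyond sampling noise (chi-square per degree of freedom from 6.79 to 42.7). The tests were repeated with DESeq2, with limma-voom, with RLE size factors, with no filter, the replicate number as a block, sex as a covariate, scaling by other endothelial genes, fits of the 6 samples compared, and leaving out libraries. DESeq2 1.42.0, limma 3.58.1 and edgeR 4.0.16 were run in R 4.3.3.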

Additional observations from a re-analysis of the deposited data

How the results depend on the processing

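Of 2286 alternative values for single members, 80 no longer passed, 24 newly passed and 0 passed in the opposite direction. The other 2182 stayed on their side of the threshold, and of these 1813 were uncalled, with 136 of opposite sign. Kit and Mmrn2 passed for hyperoxia in every alternative run. For hyperoxia after saline 6 members were called, and 4 to 5 when 1 library was left out. The fit without the 3 libraries rich in heart or muscle transcripts kept only the third library of saline hyperoxia, so its counts are not given. After ATG 5 were called, 8 with DESeq2 and 8 with scaling by other pan-endothelial genes (where calls over all genes rose from 1840 to 2356 and 2482), and 4 to 6 when 1 library was left out. For the average these counts were 12 and 9 to 12. For ATG in room air DESeq2 called 1 member in place of 0. For ATG averaged over oxygen 1 was called, 3 with DESeq2 and 2 with no filter on low counts. With RLE size factors, sex as a covariate, scaling by other pan-endothelial genes, or without the 2 cardiac-rich libraries, 0 were called. The count was 0 to 2 when 1 library was left out. The cause of these changes was not tested. Dropping libraries also removes samples, so the content of a library and the loss of a sample cannot be told apart. With the replicate block the calls were 6 for hyperoxia after saline, 7 after ATG, 13 in the average, and 0 for ATG in room air, in hyperoxia, in the average and for the interaction. Libraries with the same number correlated in their deviations from -0.16 to 0.28, with 2 of 18 pairs over 0.1. Of 12 libraries, 7 were best with their own number, which does not settle whether the numbers pair the samples. Summed ratios moved by less than the spread between samples. With 3 samples per group and a biological coefficient of variation of 18.7%, small changes were not detectable. This held for the low genes Tal1 and Lyl1 and for the abundant gene Bmpr2.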

Other observations

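Genes of other lung cells moved beside the endothelial ones in hyperoxia, where 9.19% of all genes were called after saline and 11.7% after ATG. All 10 cell cycle genes fell after both injections (edgeR's quasi-likelihood test), with medians of -1.53 and -1.96 on the log2 scale. Of 11 pericyte and smooth muscle genes, Acta2 (-0.45 and -0.41) and Myh11 (-0.54 and -0.69) fell after saline and ATG and none rose. Of 9 fibroblast genes, 1 fell after saline and 2 after ATG: Pdgfra (-0.73 and -0.80), and Meox2 after ATG (-0.35). Of 8 alveolar type 1 genes, 3 rose after saline and 1 rose and 1 fell after ATG: Hopx had 0.43 and 0.40, and Cav1, which endothelium also expresses, fell after ATG (-0.32). Of 8 alveolar type 2 genes, 3 rose and 1 fell after saline and 2 fell after ATG. Slc34a2 (0.39), Sftpb (0.27) and Sftpc (0.24) rose after saline, Sftpa1 fell after both (-0.55 and -0.59), and Etv5 fell after ATG (-0.34). Of 8 monocyte and macrophage genes, 1 fell after saline and 2 after ATG: Lyz2 (-0.71 and -0.75), and Mrc1 after ATG (-0.36). In the average 1 rose and 1 fell. Of 7 erythroid genes tested, Tfrc, the transferrin receptor, rose after both (0.69 and 0.65).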
